A study of Rattus norvegicus with 20 samples.

Results

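The imprinted Dlk1-Dio3 miRNA cluster was followed through 15 tissues and serum of the rat. Its members were chosen by name, as every miRBase hairpin precursor carrying 1 of 46 numbers known from this locus, with any letter or copy suffix. Of these numbers 45 were found and mir-889 was not listed, which gave 51 of 444 precursors. In the mature list, which counts the 5p and 3p arms of each hairpin separately, 80 of 577 entries belonged to the same hairpins. In the RefSeq gene table of rat build GRCr8 all 51 precursors lie between Dlk1 and Dio3 and correspond to 49 genes, 46 precursors on the plus strand and 5 on the minus strand.

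The donors of the small RNA libraries were male rats of the Long Evans strain, 35 days after birth, which had received no treatment and for which the labels name no genetic modification. They comprised 3 brain hemispheres and 3 serum samples run singly, and 1 library for each of fat, heart, kidney, large intestine, liver, lung, muscle, pancreas, skin, small intestine, spleen, stomach, testes and thymus, in which the miRNA of 3 rats was pooled. By the methods of the study, hemispheres, serum and pools came from 1 cohort of 3 animals. The fat was subcutaneous abdominal fat and the muscle came from the hindlimb. Each pool is a single library, so its values carry counting error only, and the whole hemispheres and organs mix many cell types. Precursor reads ranged from 388275 to 1204552 in brain and from 162080 to 3685761 in the pools, but only from 7556 to 10862 in serum. Levels are given as RPM, the reads of a miRNA scaled to a fixed total of precursor reads, or of mature reads for arms.

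The tissue labels were checked against marker miRNAs. Of the 15 tissues, brain had the highest level of mir-124 and mir-9a, muscle of mir-133a, heart of mir-208a, skin of mir-203a and testes of mir-34c. The pancreas pool did not match its label: the acinar markers mir-216a and mir-217 had 0 reads there, mir-375 stood at 495.7 RPM, and the hepatocyte marker mir-122 stood at 14862 RPM against 14726 RPM in the liver pool. The liver pool thus did not have the highest level of its own marker, and some serum samples also stood above it. mir-122 does not settle the liver label either. The test of brain against the pools was therefore also run without the liver and pancreas pools.

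The Dlk1-Dio3 region is an imprinted domain in which protein genes such as Dlk1, Rtl1 and Dio3 are expressed from the paternal chromosome, and long noncoding RNAs such as Meg3 and Mirg from the maternal chromosome. The miRNA hairpins lie within the maternal transcripts, so that a whole series of miRNAs can be cut from a few long primary RNAs. The cluster is known for its expression in embryo, placenta and brain. In locus order, 7 precursors (mir-770 to mir-665) run from Meg3, which holds mir-770, to Rtl1. A second group of 8 (mir-431 to mir-136) is called here the group opposite Rtl1, after a retrotransposon-derived gene that can be cleaved by miRNAs made from its opposite strand. Of these 8, mir-3543-1 and mir-3543-2 lie on the other strand, antisense to mir-434. mir-341 and mir-370 stand between this group and Mirg, and 34 (mir-379 to mir-410) form the Mirg array.

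The arms that carried most of the reads are shown first, because the levels below rest on them. Sequences are those of RefSeq on GRCr8, found for 78 of the 80 mature members, written 5′ to 3′ with the seed (bases 2 to 8, the stretch that pairs with target mRNAs) in capitals. The 15 arms printed here lie on the plus strand.
miR-127-3p: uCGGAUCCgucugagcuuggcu
miR-434-3p: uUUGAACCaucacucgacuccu
miR-541-5p: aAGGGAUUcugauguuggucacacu
miR-411-5p: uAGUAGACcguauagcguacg
miR-410-3p: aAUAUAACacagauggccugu
miR-136-3p: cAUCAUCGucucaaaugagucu
A second set holds arms whose hairpins took a larger share of the cluster in brain than in muscle.
miR-341: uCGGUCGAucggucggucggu
miR-487b-3p: aAUCGUACagggucauccacuu
miR-380-3p: uAUGUAGUaugguccacaucu
miR-323-3p: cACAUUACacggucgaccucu
miR-668: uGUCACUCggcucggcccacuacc
miR-412-5p: uGGUCGACcagcuggaaagu
The last set holds arms whose hairpins took a larger share in muscle.
miR-493-5p: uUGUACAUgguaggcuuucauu
miR-431: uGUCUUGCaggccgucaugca
miR-540-3p: aGGUCAGAggucgauccugggc

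Despite their common locus the members carried different seeds. The 78 sequences held 75 distinct seeds, and only 3 seeds were found in more than 1 member: AUACAAG in miR-381-3p and miR-539-3p, AGGUCAC in miR-1193-3p and miR-370-5p, and GGUUUAC in miR-299a-5p and miR-299b-5p. These 6 arms were rare, the first pair adding up to 10.3 RPM in brain. Outside the cluster, 3 members shared a seed with another listed mature miRNA. The most abundant of them was miR-410-3p, which shares AUAUAAC with miR-344b-1-3p. None of the other leading arms printed above shared its seed with a listed miRNA that has a sequence in the table.

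Several members lie on opposite strands of the same DNA, and the sources used here do not say whether counting used the strand. In the following pairs the overlapping bases are in capitals, and reads of either partner cannot be told apart.
miR-3543: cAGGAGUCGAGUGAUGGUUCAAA
miR-434-3p: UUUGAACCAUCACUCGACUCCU
miR-409b: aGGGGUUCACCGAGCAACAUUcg
miR-409a-3p: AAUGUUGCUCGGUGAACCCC
miR-3544: AACUCCUGCAUGACGCCGuuccc
miR-337-5p: CGGCGUCAUGCAGGAGUUgau
The split between partners changed with the annotation. In hemisphere 1 the precursor mir-409a had 672 reads and mir-409b 103, whereas in the mature list miR-409b had 756 reads and miR-409a-3p had 0. The last pair was the other way round: mir-3544 had 120 precursor reads and mir-337 1.02, but miR-3544 had 0 mature reads and miR-337-5p had 22. Precursors mir-3543-1 and mir-3543-2, opposite mir-434, received few reads, although miR-3543 was given 1736 mature reads in that hemisphere. miR-299a-3p and miR-299b-5p overlap in the same way, by 19 bases. The values of mir-3543, mir-3544, mir-337, mir-409a, mir-409b, mir-299a and mir-299b are uncertain for this reason. mir-434-1 and mir-434-2 are copies with the same arms and 1 RefSeq gene, so their shares of the reads are uncertain too.

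The cluster made up a large part of the miRNA of brain and of skeletal muscle. Its summed share of precursor reads was 10.05%, 9.42% and 7.55% in hemispheres 1 to 3, with a mean of 9.01% ± 1.30 (SD, n = 3). The muscle pool stood at 8.17% (Wilson 95% interval 8.12 to 8.21%), within the range of the hemispheres. Fat (1.43%) and skin (1.13%) followed, then testes (0.536%), stomach (0.392%) and spleen (0.285%). The other 8 pools lay between 0.0238% in lung and 0.153% in large intestine. In each of the 13 pools other than muscle the share was lower than in any hemisphere. Which of brain and muscle was higher depended on scaling and on the list: with TMM factors, which correct for differences in library composition, brain came to 5.83% and muscle to 9.25%. On mature reads muscle (10.9%) also lay above every hemisphere (7.87 to 10.5%).

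**Figure D1:**
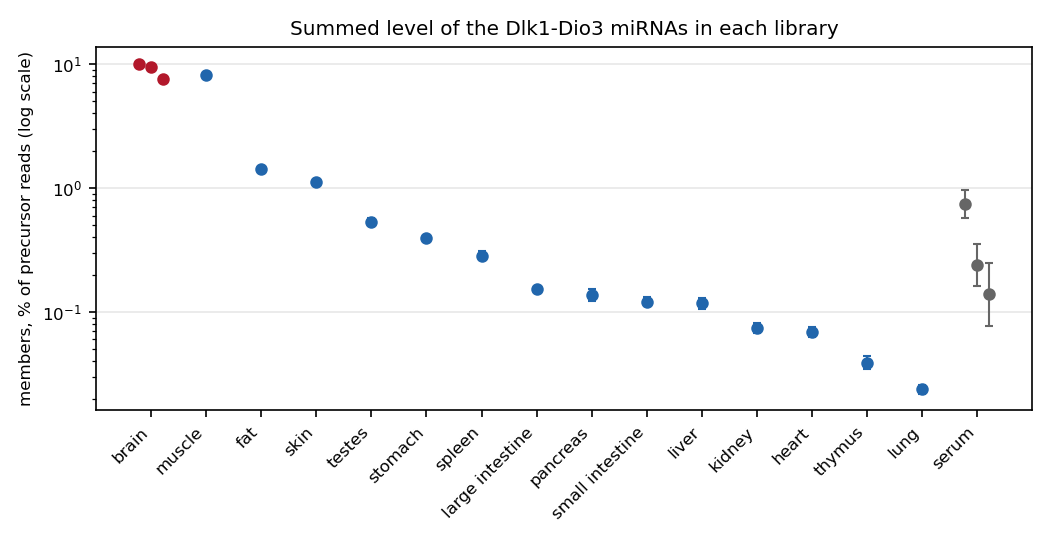
Share of precursor reads taken by the 51 Dlk1-Dio3 precursors in each of the 20 libraries (percent, log axis). Points are single libraries with Wilson 95% intervals, which cover counting error only. The 3 hemispheres (7.55 to 10.05%) and the muscle pool (8.17%) stand above fat and skin (1.43 and 1.13%), while lung is lowest at 0.0238%.

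In bulk tissue, fewer cells that make a miRNA and less of it per cell cannot be told apart. Skeletal muscle markers (mir-1, mir-1b, mir-133a, mir-133b and mir-206) summed to 70956 RPM in the muscle pool. The heart pool had 27571 RPM of the same markers but only 0.0687% of its reads in the cluster. The skin pool held 3.05% of the muscle pool's marker level and 13.8% of its cluster level. In the fat pool these percentages were 0.0835 and 17.5. mir-199a, a miRNA of mesenchymal cells, was at 5598 RPM in fat, 7694 RPM in skin and 5932 RPM in muscle, against 153.6 ± 44.6 RPM in brain (SD, n = 3) and 524 to 3342 RPM in the other pools. The part of mesenchymal cells in the fat, skin and muscle values was not tested.

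mir-127, whose 3p arm pairs with Rtl1 mRNA, was the most abundant member. It stood at 58038, 52379 and 39454 RPM in the hemispheres and at 47227 RPM in muscle. Fat (8101 RPM), skin (4971 RPM) and testes (2221 RPM) came next, and kidney was lowest with 19.6 RPM, from 12 reads. Muscle lay within the range of the hemispheres, and the other 13 pools lay below all of them. mir-127 alone made up 55.2% ± 2.77 (SD, n = 3) of the members' reads in brain, 57.8% in muscle and 56.7% in fat.

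Its neighbours opposite Rtl1 were less abundant. mir-434-1 stood at 6392, 6293 and 4077 RPM in brain, 5452 RPM in muscle and 531 RPM in fat. mir-136 stood at 3684, 3626 and 3209 RPM in brain, 3285 RPM in muscle and 519 RPM in skin, the next highest pool. In the Mirg array, mir-411 stood at 7478, 7197 and 5339 RPM in brain, 7641 RPM in muscle and 2258 RPM in skin. mir-541 was at 4583, 5347 and 8260 RPM in brain, the highest value falling in hemisphere 3, where mir-127, mir-411 and mir-410 were at their lowest of the hemispheres. It was at 5326 RPM in muscle and 1502 RPM in fat. mir-410, the last hairpin of the array, was at 3748, 3957 and 2704 RPM in brain and 2047 RPM in muscle, with every other pool at or below 185 RPM. For this hairpin the hemispheres did not overlap with any pool in RPM, but with TMM scaling they did, the log2 ratio of brain to muscle falling from 0.76 to -0.05.

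The internal make-up of the cluster differed among the tissues of low level. In kidney, 38.0% of the members' reads fell on mir-541 and 37.4% on mir-411, 173 and 170 of 455 reads, while mir-127 held 2.64%. The whole group opposite Rtl1 held 4.40% there (Wilson 95% interval 2.86 to 6.69%). The Mirg array took 95.6% of the kidney reads, against 24.9% ± 3.46 in brain (SD, n = 3) and 21.7% in muscle. In the pancreas pool mir-411 (39.4%) and mir-136 (26.7%) led, and in liver mir-411 (30.5%) and mir-136 (16.4%). mir-127 made up 8.30% and 15.1% there, from 23 and 58 reads. In lung, with 570 member reads, mir-127 made up 55.3%, close to its share in brain, although lung had the lowest summed level.

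**Figure D2:**
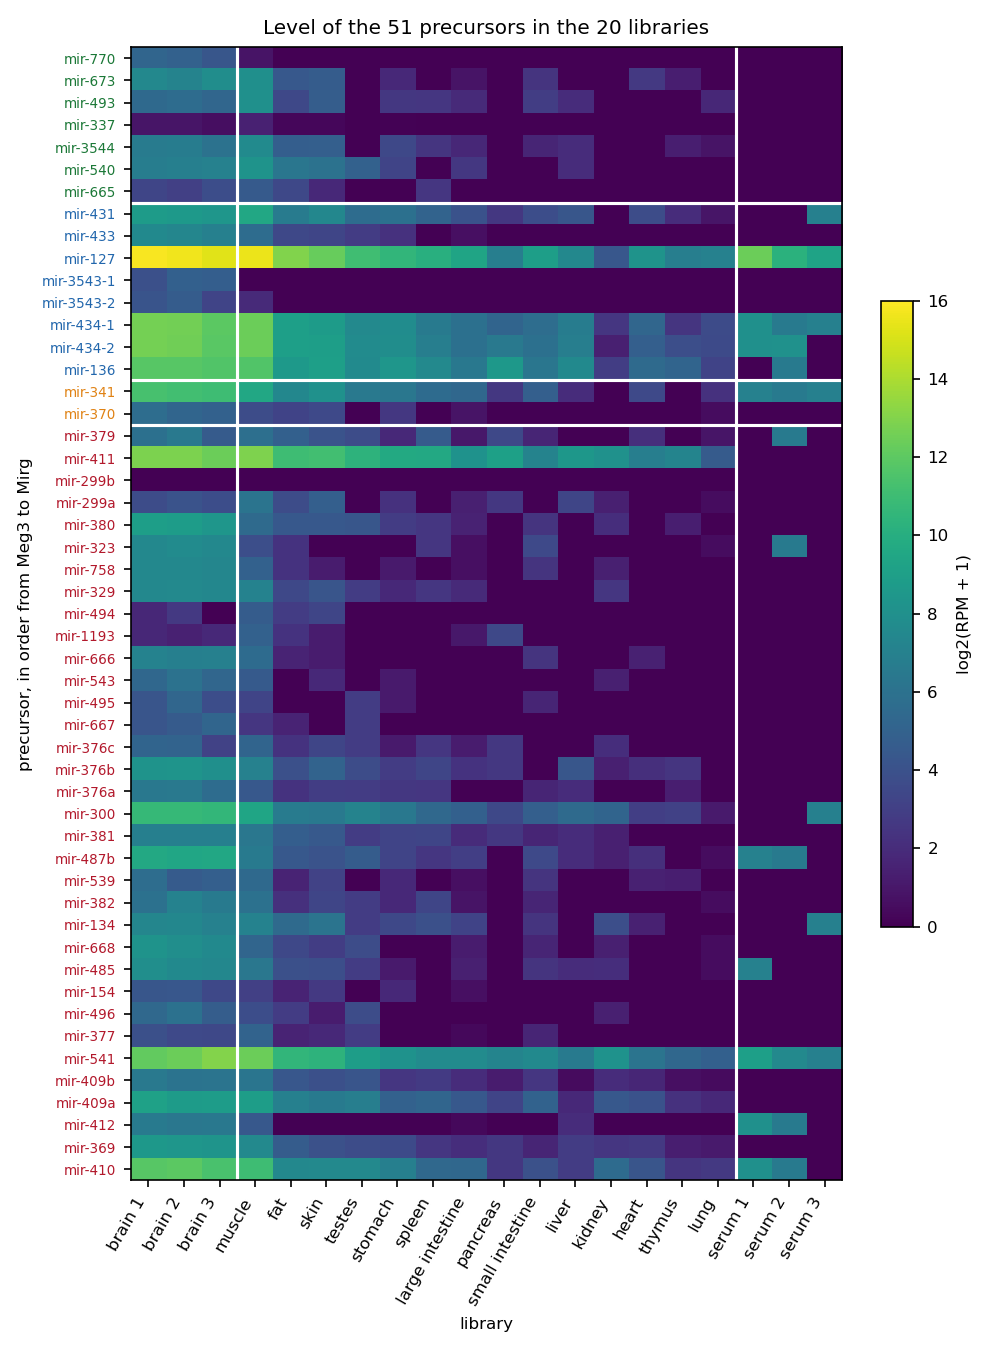
Level of each precursor, log2(RPM + 1), in locus order from Meg3 (top) to Mirg (bottom), in the 20 libraries, with pools ordered by summed level and name colours marking the groups of the locus (green from Meg3 to Rtl1, blue opposite Rtl1, orange between Rtl1 and Mirg, red the Mirg array). mir-127, mir-411 and mir-541 remain visible in most pools, whereas in the 13 pools other than muscle mir-770 is at 0, mir-323 at most at 10.7 RPM and mir-412 at most at 3.05 RPM. Most members are at 0 in serum.

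How widely a member reached was counted with a fixed size rule, since pools have no replicates: at least 4-fold above the median of the other tissues (1 RPM added) with at least 10 reads. In brain 47 of 51 members met it, where 36.9% of all precursors did. In muscle 44 met it, against 17.8% of all precursors. Skin had 20 members (background 14%) and fat 17 (background 8.78%). Testes had 2, mir-409a and mir-410 (background 9.91%), and the other 10 pools had none. Their backgrounds were 4.73% in heart, 4.05% in kidney, 4.28% in large intestine, 4.5% in liver, 10.8% in lung, 3.83% in pancreas and in small intestine, 6.53% in spleen, 2.48% in stomach and 9.23% in thymus. Adding 10 RPM instead lowered skin to 9 members and fat to 8, where 38 and 24 of all 444 precursors met the rule. TMM scaling lowered them to 9 and 4, where 32 and 14 of all precursors did.

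The whole precursor list was tested for brain against the 14 pools (edgeR, quasi-likelihood), to ask which members were higher in brain than in the body at large. The 14 pools were treated as 1 group, so the SE and p of this test take the spread between tissues as error. Because the 3 hemispheres are 1 tissue, p-values can be too small. Of the 51 members 42 passed the filter of at least 10 reads in at least 3 libraries, and 18 of these passed only with the help of the brain libraries, so the counts describe the tested members and are no support in themselves. Among them 20 were higher in brain and 0 lower, where 24.1% of the 295 tested precursors were higher and 18.6% lower. At an unadjusted p under 0.05 the number of members was 23. The median log2 fold change of the tested members was 2.70, beside 0.17 over all tested precursors. Scaling by library totals shifted all precursors by a median of 1.03 on the log2 scale towards brain.

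The placement of the called members along the locus depended on the muscle pool. With all 14 pools the Mirg array contributed 16 of 29 tested, and mir-341 and mir-370 both passed. The group opposite Rtl1 contributed 2 of 7, among them the uncertain mir-3543-1, and none of 4 from Meg3 to Rtl1 passed. Without muscle, further members of the array were called. So were mir-127, mir-434-1, mir-434-2 and mir-136 opposite Rtl1, and mir-673 and mir-3544 from the Meg3 end. No difference between these groups was tested. In the array, mir-323 was at 178, 213.8 and 175 RPM in the hemispheres, 13.5 RPM in muscle and 0 to 10.7 RPM elsewhere, a log2 fold change of 5.0 ± 1.02 (SE, edgeR adjusted p = 8.7e-04). mir-487b was at 809, 711 and 765 RPM in brain, 97.6 RPM in muscle and at most 24.7 RPM elsewhere (log2 fold change 4.61 ± 0.97, edgeR adjusted p = 0.0012). In both, every hemisphere stood above every pool.

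mir-380 and mir-668 showed the same arrangement. mir-380 was at 503, 459 and 337.4 RPM in brain and 45.3 RPM in muscle (log2 fold change 4.52 ± 0.98, edgeR adjusted p = 0.0014). mir-668 was at 298.9, 244 and 193 RPM in brain and 36.5 RPM in muscle (4.51 ± 1.01, edgeR adjusted p = 0.0019). mir-412 was nearly restricted to these tissues. It stood at 91.3, 80.6 and 82.4 RPM in brain and 19.8 RPM in muscle, with 3.05 RPM from 1 read in liver, 0.271 RPM from 1 read in large intestine and 0 in the other 11 pools (4.28 ± 1.10, edgeR adjusted p = 0.0058). These calls of mir-323, mir-487b, mir-380, mir-668 and mir-412 held in each of 24 settings of filter, scaling, tool and libraries.

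Nearer to Rtl1, mir-341 was at 2645, 2248 and 2127 RPM in brain, 776 RPM in muscle and 267 RPM in skin (log2 fold change 3.40 ± 1.25, edgeR adjusted p = 0.038). mir-433 was at 195, 161 and 126 RPM in brain, 48.4 RPM in muscle and at most 10.2 RPM elsewhere (3.71 ± 1.16, edgeR adjusted p = 0.018). For each of them the hemispheres lay above all pools. The call of mir-341 held in 20 of the 24 settings and that of mir-433 in 22, while that of mir-370 held in only 13. The largest fitted value was that of mir-3543-1 (6.40 ± 0.63, edgeR adjusted p = 0.0014), which rests on 10.15 to 16.92 estimated reads per hemisphere that share sequence with mir-434, so it is not read as a difference of its own.

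The most abundant members were not called by edgeR with TMM and all 14 pools, and only a few of the 24 settings called them. mir-410 was called in 5 settings, mir-127, mir-434-1, mir-136 and mir-541 in 4, and mir-411 in 3. mir-127 had a log2 fold change of 2.44 ± 1.37 (edgeR adjusted p = 0.14) and mir-136 of 2.02 ± 1.09 (edgeR adjusted p = 0.13). mir-411 had 1.46 ± 1.00 and mir-541 2.03 ± 1.03 (edgeR adjusted p = 0.22 and 0.11). mir-410 fell just short, with 3.07 ± 1.23 (edgeR adjusted p = 0.052). The smallest values were those of mir-299a at -0.57 ± 1.38, mir-493 at -0.10 ± 1.58, mir-540 at 0.78 ± 1.64, mir-431 at 1.09 ± 1.34 and mir-3544 at 1.11 ± 1.38. Under library totals mir-299a and mir-493 came to 0.45 and 0.88, so the sign of these values depends on scaling. DESeq2 called mir-127 at an adjusted p of 0.0025 and edgeR with library totals at 0.046, where the range over all settings was 1.5e-04 to 0.26. DESeq2 also called mir-410 (adjusted p = 5.6e-05), mir-434-1 (3.3e-04), mir-541 (0.0066) and mir-136 (0.014), but not mir-411 (0.40). With library totals edgeR called all 5, with adjusted p of 0.013 for mir-410, 0.040 for mir-434-1, 0.023 for mir-541, 0.026 for mir-136 and 0.046 for mir-411.

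The muscle pool decided much of this count. Without it 34 of 39 tested members were higher in brain, where 29.2% of 288 precursors were. Of the 34, 19 were the same as before and 15 were added, among them mir-127 (log2 fold change 4.01 ± 0.98, edgeR adjusted p = 0.0031), mir-434-1, mir-136, mir-411, mir-541 and mir-410. mir-495 no longer passed the filter. The 5 tested members not called were mir-134, mir-379, mir-431, mir-493 and mir-540. Leaving out muscle, skin and fat together, a choice made after seeing that the cluster was highest there, gave 38 of 38 (30.1% of 279 precursors). Without hemisphere 1, 2 or 3, only 6, 6 and 8 members were higher, and only 24, 24 and 26 of all precursors.

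**Figure D3:**
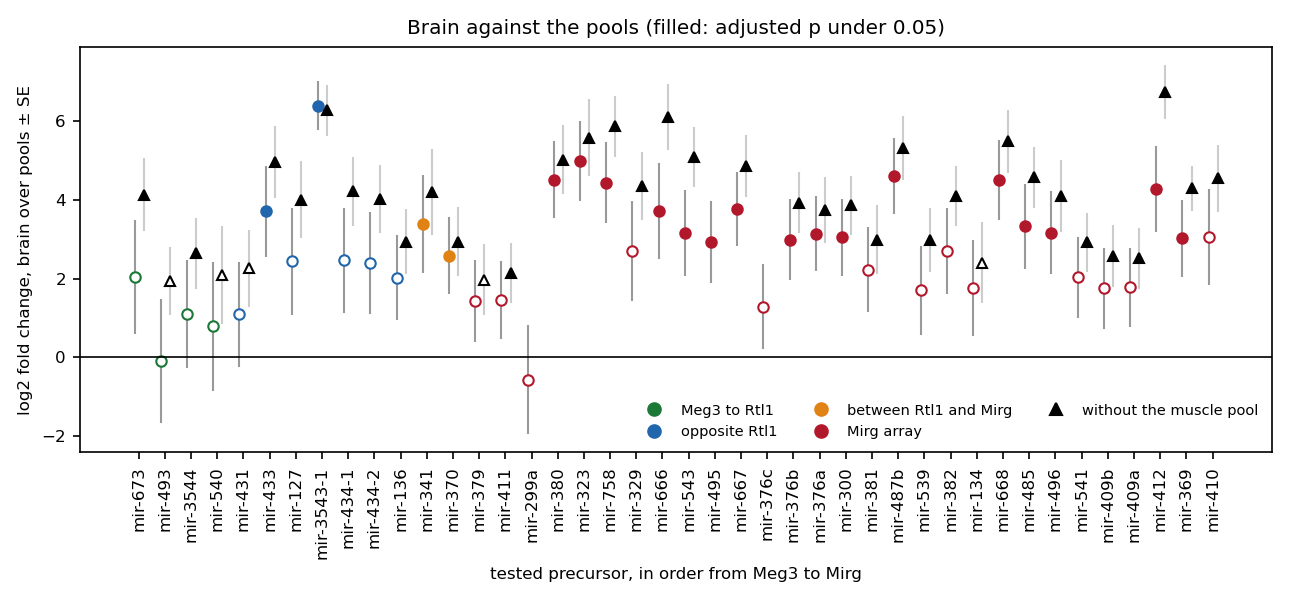
log2 fold change of brain over the pools with its SE for the 42 tested precursors in locus order (coloured circles, all 14 pools) and for the 39 tested without the muscle pool (black triangles). Filled symbols have an edgeR adjusted p under 0.05. Every triangle lies above 0, and mir-127, mir-411, mir-541 and mir-410 turn from open to filled when muscle is left out, while mir-493, mir-540 and mir-431 keep open symbols.

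Counted without a test, every hemisphere exceeded every pool in 24 of the 42 tested members, where 36.3% of all tested precursors did so. Muscle set aside, this rose to 39 of 42, with a background of 41.4%. With TMM scaling the counts were 14 and 38, with backgrounds of 20.0% and 28.8%. The 3 members that failed the second count were mir-299a, mir-376c and mir-379.

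The arms gave a like picture. Of 80 mature members 40 were tested against the pools, 23 of which passed the filter only with brain reads, and 17 were higher in brain and 0 lower (20.0% of 290 mature miRNAs were higher and 24.1% lower). miR-323-3p (4.96 ± 0.90), miR-487b-3p (4.51 ± 0.90) and miR-380-3p (4.35 ± 0.96) had the largest log2 fold changes, with edgeR adjusted p of 2.8e-04, 6.5e-04 and 0.0014. miR-127-3p had 2.35 ± 1.32 (edgeR adjusted p = 0.14). miR-431 (-0.22 ± 1.40) and miR-493-5p (-0.80 ± 1.52) were below 0, with edgeR adjusted p of 0.91 and 0.67. Without muscle 32 of 34 tested arms were higher (31.0% of 284 mature miRNAs), and without muscle, skin and fat 32 of 33 (28.4% of 275). Without hemisphere 1, 2 or 3 the number was 7, 7 and 10, among 22, 22 and 26 mature miRNAs in all.

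Brain and muscle held the cluster at like totals, and single members took larger or smaller shares of it. Between the brain mean and the muscle pool, 10 of the 49 members with at least 10 reads in either were at least 4-fold higher in brain (37.6% of 319 precursors were) and 4 were at least 4-fold higher in muscle (14.1% of precursors were). With TMM scaling these counts became 5 and 6. Shares of the members' own reads do not depend on scaling. By this measure the muscle share lay below all 3 hemispheres for 22 members, above all 3 for 11 and among them for 16, taking the Wilson interval of the muscle share into account. Precursors outside the cluster, taken as shares of their own summed reads, lay below in 58.1% and above in 24.4% of 270, so departures of this kind were no more frequent in the cluster.

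Members with a larger share in muscle were found at the Meg3 end and elsewhere. Of 6 members from Meg3 to Rtl1, 4 took a larger share in muscle, 1 of them the uncertain mir-3544, and the median ratio of muscle to brain share was 2.49. In the Mirg array 5 of 33 took a larger and 16 a smaller share, with a median ratio of 0.594. Opposite Rtl1, 2 of 8 took a larger and 3 a smaller share, and the difference between these groups was not tested. mir-493 was at 44.0, 49.1 and 38.6 RPM in brain but 262 RPM in muscle. Its share of member reads was 0.0490% ± 0.0045 in brain (SD, n = 3) and 0.321% in muscle. mir-540 was at 108, 117 and 131 RPM in brain and 303 RPM in muscle, and mir-431 at 442, 380 and 337.4 RPM in brain and 781 RPM in muscle. In the array, the uncertain mir-299a was at 12.5, 15.8 and 12.9 RPM in brain and 71.4 RPM in muscle. For these 4 hairpins the muscle level was above all hemispheres.

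Several hairpins of the array took a larger share in brain. mir-323 held 0.212% ± 0.030 of the member reads in brain and 0.0165% in muscle, 12.8-fold less, and mir-380 held 0.478% ± 0.028 and 0.0554%. mir-487b and mir-668 had 7.18-fold and 6.05-fold larger shares in brain than in muscle. At the Meg3 end mir-770 was found with 44, 17 and 7 reads in the hemispheres, 1 read in muscle and 0 in the other 13 pools. It did not pass the filter and was not tested. mir-127, mir-434-1 and mir-136 had share ratios of brain to muscle of 0.95, 0.92 and 0.97, and their muscle shares lay among the hemispheres.

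**Figure D4:**
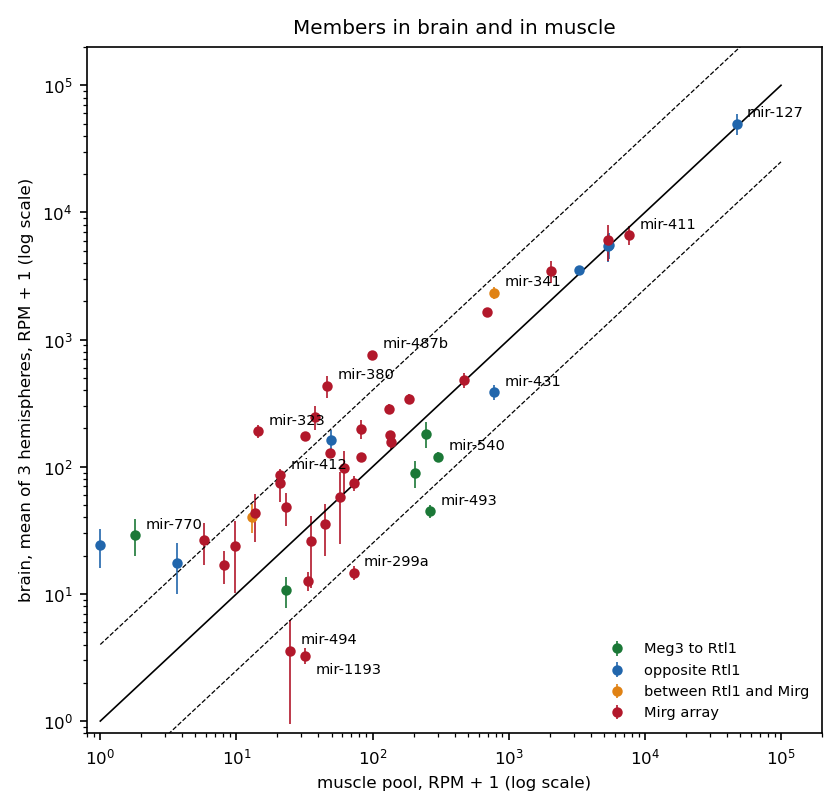
Level in brain (mean of 3 hemispheres with SD) against the muscle pool for 49 members, RPM + 1 on log axes, coloured by group. The solid line marks equal levels and dashed lines 4-fold differences. mir-127 and mir-411 lie near the solid line, mir-323, mir-380, mir-487b and mir-770 above the upper dashed line, and mir-493, mir-299a, mir-494 and mir-1193 below the lower.

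The arm used by a hairpin was read from the mature list. A hairpin yields a 5p and a 3p arm, of which usually 1 is kept. In 15 of the 31 hairpins with both arms listed, brain and muscle each had at least 20 reads. Muscle lay above all hemispheres in 3 of them (miR-376b, miR-433 and miR-136), below in 2 (miR-369 and miR-434), and among them in 10. Outside the cluster 34.3% of 70 hairpins lay above or below, so the 5 of 15 are near the background. The 5p share was 99.9% in miR-411 and 0.499% in miR-127 in brain, with muscle at 99.9% and 0.521%.

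miR-376b showed the widest difference. Its 5p arm took 56.1%, 54.7% and 49.0% of reads in the hemispheres (53.2% ± 3.75, SD, n = 3), but 93.8% in muscle (Wilson 95% interval 88.9 to 96.6%, 160 reads). Of its arms, miR-376b-3p stood at 155 ± 4.54 RPM in brain and 12.2 RPM in muscle, while miR-376b-5p stood at 178 ± 27.6 and 183 RPM. In the test against the pools miR-376b-3p was higher in brain (log2 fold change 4.29 ± 0.82, edgeR adjusted p = 4.5e-04) and miR-376b-5p was not called (2.17 ± 1.05, edgeR adjusted p = 0.098). miR-376c-5p, which shares its first 18 bases with miR-376b-5p (in capitals), has no entry of its own in the list, so reads of it may enter the 5p count.
miR-376b-5p: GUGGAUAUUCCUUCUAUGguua
miR-376c-5p: GUGGAUAUUCCUUCUAUGuuu

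miR-136 gave 18.3%, 19.0% and 16.1% of reads on its 5p arm in brain and 27.3% in muscle (Wilson 95% interval 26.0 to 28.8%). In miR-369 the 5p share was 64.1%, 57.8% and 58.0% in brain and 46.6% in muscle (38.5 to 54.9%). More reads thus fell on 5p in brain and on 3p in muscle. The interval of hemisphere 1 (58.0 to 69.8%) excludes equal use of the arms, with 5p ahead. Those of muscle and of hemispheres 2 and 3 (48.6 to 66.6% and 46.2 to 68.9%) include it. Which arm led is not settled in the latter libraries. miR-433 had 26.1%, 18.4% and 30.4% in brain and 44.6% in muscle, from only 56 reads. miR-434 had 13.5%, 15.4% and 19.3% in brain and 9.60% in muscle, a value that depends on how the reads of miR-434-3p and miR-3543 were divided. With a minimum of 100 reads 5 hairpins could be compared, and 2 of them differed, miR-136 and the uncertain miR-434. miR-376b (98 reads in hemisphere 3), miR-369 and miR-433 did not reach that minimum.

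For mir-431 the list names only the 5p arm, shown in capitals within its hairpin (bases 20 to 40 of 114).
mir-431 hairpin: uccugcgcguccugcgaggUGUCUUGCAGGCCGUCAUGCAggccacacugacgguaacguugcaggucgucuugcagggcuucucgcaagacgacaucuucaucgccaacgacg
Of the reads on the mir-431 precursor, 49.8%, 42.9% and 34.4% were assigned to that arm in the hemispheres (42.3% ± 7.74, SD, n = 3), against 95.1% of 984 reads in muscle. The arm was accordingly lower in brain, at 196 ± 61.4 RPM against 1140 RPM in muscle. The precursor stood at 386 ± 52.4 RPM in brain and 781 RPM in muscle. Where on the hairpin the other brain reads lay is not recorded in the counts. mir-410 had 99.2% ± 0.22 of its brain reads on its listed arm and 99.3% in muscle, and mir-127 had 92.7% ± 0.32 and 88.4%. mir-300 went the other way, with 72.6% ± 0.988 in brain and 57.5% in muscle.

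**Figure D5:**
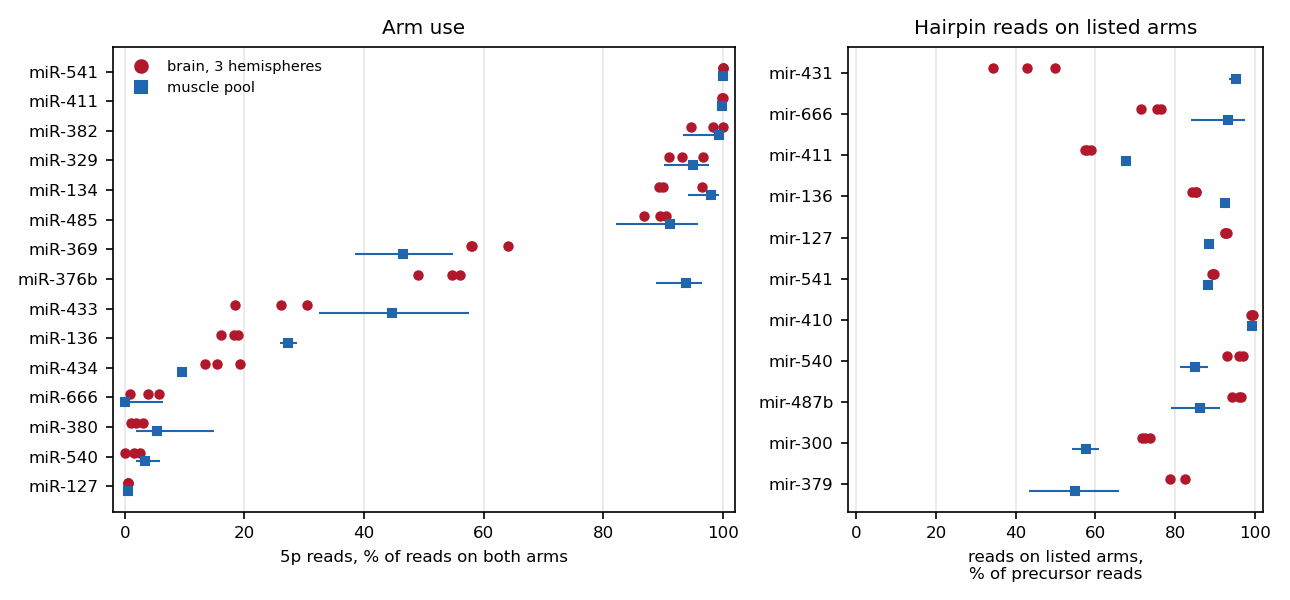
Left, 5p reads as percent of reads on both arms for 15 hairpins. Right, reads on the listed arms as percent of all reads of the precursor for 11 hairpins. Red circles are the 3 hemispheres, or those with at least 20 reads, and blue squares the muscle pool with its Wilson 95% interval. miR-376b separates at 49.0 to 56.1% in brain and 93.8% in muscle, and mir-431 at 34.4 to 49.8% and 95.1%.

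Serum held little of the cluster. Its libraries had 56, 26 and 11 member reads, or 0.741%, 0.239% and 0.139% of precursor reads, with a mean of 0.373% ± 0.323 (SD, n = 3) and 0.189% without serum sample 1. All serum values were below all hemispheres. Reads of at least 1 member were found for 17 of 51 precursors, and 34 had none in 26348 precursor reads. A count of 0 allows up to 114 RPM over the 3 libraries together, so members of low level could not be detected.

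mir-127 was the main member in serum, with 41, 13 and 5 reads, or 5426, 1197 and 630 RPM. It was the only member with at least 3 reads in at least 2 serum libraries. Brain stood above serum in every library, with a log2 fold change of 4.27 ± 0.55 (edgeR adjusted p = 3.0e-05). With the mir-434 copies counted separately, mir-541 followed with 4, 2 and 1 reads (4.42 ± 0.55, edgeR adjusted p = 2.4e-05). mir-434-2 had 2, 3 and 0 reads and mir-434-1 had 4 in all. Counted together, these copies had more reads than mir-541. mir-341 had 1 read in each sample, and mir-410 and mir-412 each had 3 in all. Other tissue markers differed among the same serum samples. mir-122 was at 21175, 142147 and 10340 RPM, and the skeletal muscle markers summed to 0, 368 and 3657 RPM. Their part in the spread of the members was not tested.

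mir-411 was absent from the serum reads although its mean brain level was next to that of mir-127 among precursors, with the mir-434 copies counted separately. In hemisphere 3 mir-541 was higher. It had 0 serum reads, so its mean brain level of 6671 ± 1162 RPM was at least 58.6-fold higher than the 3-read limit over the serum group. In brain there were 12.9, 13.7 and 13.5 reads of mir-411 for each 100 of mir-127, and in muscle 16.2. In serum there were 0 for 59 reads of mir-127, a count that allows up to 5.08 for each 100. The mature list gave the same, with 0 serum reads of miR-411-5p.

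Of the 38 members tested between brain and serum, 20 were higher in brain and 0 lower, where 44.7% of 235 tested precursors were higher and 18.7% lower. All 38 passed the filter through brain reads, and serum was far shallower. With any 1 hemisphere left out only 1 member, mir-127, passed the filter, and it was higher in brain, as were 29 to 30 of 68 tested precursors. At an unadjusted p under 0.05 there were 21. Among the 20, 10 had serum reads and 10 had none. For the latter the fitted fold change depends on the prior count, and the bound against the 3-read limit ran from 1.12-fold (mir-666) to 58.6-fold (mir-411). mir-412 stood out among members with reads: with 2, 1 and 0 in serum and 110, 46 and 32 in brain, its log2 fold change was -0.57 ± 0.92 (edgeR adjusted p = 0.58), and it was not detectably different. The mature list gave 26 of 33 tested higher in brain and 0 lower, with backgrounds of 52.8% and 14.2%. Of the 26, 16 had 0 serum reads, and for 8 of these the brain mean was below the 3-read serum limit, with ratios down to 0.625 (miR-666-3p), so that no difference could be bounded.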

How the data were processed

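Small RNA of 3 brain hemispheres, 3 serum samples and 14 tissue pools was analysed. The authors prepared TruSeq small RNA libraries, sequenced them on a MiSeq, trimmed bases under a quality of 20, aligned reads to rat Rn5 with Bowtie and quantified them in Partek, with miRBase 21 and RefSeq as annotations. The authors deposited estimated counts for each feature, without normalization and partly fractional where reads fit several features. The same reads were counted under 3 annotations stacked in 1 list of 1409 features, so RPM were computed within each annotation. Small RNA reads cover the mature RNA (18 to 25 bases in the members), and levels were not divided by length.

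Estimated counts were rounded and tested with edgeR 4.0.16 in R 4.3.3 (TMM, at least 10 counts in at least 3 libraries, Benjamini-Hochberg adjustment over all tested features, threshold 0.05). Standard errors are the log2 fold change over the root of F. The procedure was tested on simulated data. DESeq2 1.42.0, other scalings, filters and annotations, each library left out, and the replicate block were alternatives. Serum and brain samples carry the same numbers and came from the same animals by the paper's methods. The correlations of their deviations by number were 0.0935, -0.105 and -0.0359 over 75 precursors.

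Members and lists were chosen with earlier results of these data known. Named members are the 12 with the highest level in brain and in muscle, the 5 largest and smallest log2 fold changes of each comparison, landmark hairpins of the locus, the 5 hairpins of most different arm use, and members with at least 3 reads in at least 2 serum samples. Members given only as examples of shared seeds, overlap, calls, or 4-fold differences lie outside this rule and were named after their values were seen. Names and order came from RefSeq on GRCr8, not from Rn5, so no positions are given. Summaries used pandas 2.3.3 on Python 3.11.15, intervals NumPy 2.4.6, and plots Matplotlib 3.10.9. Depth was 7556 to 3685761 precursor reads. Intervals are Wilson 95% and, like limits of 3 reads, cover counting error only, since reads are not independent molecules.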

Additional observations from a re-analysis of the deposited data

How the results depend on the processing

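No setting gave a member lower in brain. Counts over all tested features are given in brackets, because they moved too. Against the pools, the 20 precursors higher in brain (71 of 295) became 32 with library totals (123 of 295). They became 15 with DESeq2 size factors (52 of 295) and 25 with DESeq2 (68 of 295). With no count filter 21 of 50 were higher (72 of 424), and in the RefSeq list 19 of 39 (67 of 266). With 1 library left out the range was 6 (hemisphere 1 or 2, 24 of 263 and of 264) to 34 (muscle, 84 of 288). The count was 38 without muscle, skin and fat (84 of 279) and 19 without liver and pancreas (64 of 292). Both these settings were chosen after seeing the data. The 17 mature members (58 of 290) became 27 of 78 with no count filter (94 of 568). With 1 library left out they were 7 (hemisphere 1 or 2, 22 of 256 and of 257) to 32 (muscle, 88 of 284). Without muscle, skin and fat they were 32 (78 of 275), and without liver and pancreas 13 (55 of 288). mir-493 turned from -0.10 to 2.70 (edgeR adjusted p = 0.0096) without muscle, skin and fat. Without hemisphere 1, 2 or 3 the tested precursor members fell only from 42 to 37, 38 and 40. The tested mature members fell from 40 to 33, 33 and 39. The spread within brain then rests on fewer samples, and the reason for the lower counts was not tested.

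Against serum, no count filter gave 27 of 50 precursors and library totals 23. Leaving out 1 library gave 1 to 19 precursors and 1 to 22 mature members, the 1 being mir-127 or its 3p arm, the only member tested without a hemisphere. The replicate block for samples with the same number gave 17 precursor members (20 without it), where 97 of 235 precursors were higher. It gave 20 mature members (26 without it), where 95 of 212 mature miRNAs were higher. For brain against the pools no paired analysis was possible, because each pool mixes all 3 rats and cannot be matched to a single hemisphere.

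The 4-fold rule gave 8 members in fat and 9 in skin with 10 RPM added (24 and 38 of all 444 precursors). With TMM scaling it gave 4 and 9 (14 and 32 of 444), and with no read minimum 29 in fat (55 of 444). With 1 hemisphere left out it gave 46 to 47 in brain (157 to 164 of all precursors) and 44 in muscle (79). It then gave 20 in skin (62 to 63) and 17 in fat (39). The summed level with TMM was 5.83% in brain, 9.25% in muscle, 0.927% in skin and 1.08% in fat, and on mature arms 9.40%, 10.9%, 1.35% and 1.82%. Leaving out 1 library gave 8.49 to 9.74% in brain and 0.189 to 0.490% in serum. At 100 reads 2 of 5 hairpins, against 5 of 15, differed in arm use. Serum depth and the single library per pool limit what can be detected.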

Other observations

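Inside the interval between Dlk1 and Dio3 the list holds 10 further miRNA precursors that the chosen numbers do not cover. Of these mir-6331, on the plus strand between mir-539 and mir-382 in GRCr8, was the only one with more than 8 brain reads. It was at 1246, 1249 and 837 RPM in the hemispheres, 673.2 RPM in muscle, 69.1 RPM in skin and at most 34.7 RPM in the other pools. Its log2 fold change over the pools was 3.12 ± 1.26 (edgeR adjusted p = 0.053) and over serum 4.72 ± 0.72 (edgeR adjusted p = 1.0e-04), with 1 serum read. Among 252 tested precursors outside the members, its profile over the 15 tissues was the most like that of the summed members, with a Pearson r of 0.97 on log2(RPM + 1). This r is a description over 15 tissues that share library and depth with the sum. The next were mir-338 (0.69), mir-125b-2 (0.67), mir-125b-1 (0.67) and mir-344b-1 (0.65), while 20 of the 42 tested members had an r above 0.9 with a sum that contains them.

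miRNAs of other imprinted loci had other patterns. mir-298, of the Gnas region, was at 1010 ± 141 RPM in brain (SD, n = 3), 2277 RPM in testes and 179 RPM in muscle, and its neighbour mir-296 was at 74.0 RPM in testes and 6.23 ± 2.37 RPM in brain. mir-483, within Igf2, was at 407 RPM in muscle and 0.861 ± 0.877 RPM in brain. mir-675, from H19, had 22.2 RPM in muscle, 2.04 RPM in fat and 0 in every other library. mir-335 was not listed.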
